A study of Mus musculus with 8 samples.

Results

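The circadian clock genes described here are Arntl, Clock, Npas2, Per1, Per2, Per3, Cry1, Cry2, Nr1d1 and Dbp, taken as the probe sets that carry these symbols in the platform annotation of the array. All 10 genes were measured, by 23 of 45037 probe sets, and each gene was followed through its brightest probe set in a fit of 18193 genes. Messenger RNA was measured in the hearts of 8 female mice of a conditional knock-out line named for MCK, the muscle creatine kinase gene, whose promoter is active in heart and skeletal muscle. Knock-out (KO) mice at 10 weeks, wild-type (WT) mice at 10 weeks, KO mice at 4 weeks and WT mice at 4 weeks each gave 2 hearts, with 1 Affymetrix mouse array per heart. The 4 mice of an age were littermates, and the labels give neither the alleles that the WT littermates carry nor the hour of day at which a heart was taken.

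The clock of a mammalian cell is a feedback loop. ARNTL, also called BMAL1, pairs with CLOCK or its relative NPAS2 and switches on genes that hold E-box elements, among them the Per and Cry genes, Nr1d1 and Dbp. The PER and CRY proteins then block this pair, NR1D1 (REV-ERB alpha) represses Arntl through ROR elements, and DBP acts on D-box elements in output genes and in Per genes. In heart, as in other tissues, these messenger RNAs go up and down over the day, with Arntl, Clock and Npas2 out of phase with Nr1d1, Dbp and the Per genes, so a single sample shows a level at an hour that has to be known to be read. In heart muscle the clock is known for its part in metabolism and in ion channel expression. Below, Arntl, Clock and Npas2 are the positive arm, Per1, Per2, Per3, Cry1, Cry2 and Nr1d1 the negative arm, and Dbp an output.

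The promoters of Per3, Dbp, Clock and Nr1d1 are shown because these are the 4 genes on which the test results below turn, and that of Per1 because it holds both an E-box and a ROR core. Each line is the 250 bases before a start site of the gene, 5′ to 3′ on the gene's strand, from RefSeq on the GRCm38.p6 build. Capitals mark matches, on either strand, to the E-box CACGTG, the variant E-box CACGTT, the D-box TTATGTAA and the ROR core AGGTCA, and no match overlapped another. The positions are chr4:151044666-151044915 on the minus strand for Per3, chr7:45704997-45705246 on the plus strand for Dbp, chr5:76304793-76305042 on the minus strand for the first of 3 Clock starts, chr11:98775378-98775627 on the minus strand for Nr1d1 and chr11:69098699-69098948 on the plus strand for the first of 2 Per1 starts.
Per3: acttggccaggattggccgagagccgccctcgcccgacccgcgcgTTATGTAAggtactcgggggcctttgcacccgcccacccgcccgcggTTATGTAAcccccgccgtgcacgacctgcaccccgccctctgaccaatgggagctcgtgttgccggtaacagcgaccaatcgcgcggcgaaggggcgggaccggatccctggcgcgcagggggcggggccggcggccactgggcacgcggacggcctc
Dbp: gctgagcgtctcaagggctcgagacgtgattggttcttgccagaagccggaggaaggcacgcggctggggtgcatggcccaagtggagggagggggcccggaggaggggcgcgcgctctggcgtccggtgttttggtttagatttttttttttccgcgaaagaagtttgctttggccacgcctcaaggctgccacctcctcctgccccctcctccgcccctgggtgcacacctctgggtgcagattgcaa
Clock: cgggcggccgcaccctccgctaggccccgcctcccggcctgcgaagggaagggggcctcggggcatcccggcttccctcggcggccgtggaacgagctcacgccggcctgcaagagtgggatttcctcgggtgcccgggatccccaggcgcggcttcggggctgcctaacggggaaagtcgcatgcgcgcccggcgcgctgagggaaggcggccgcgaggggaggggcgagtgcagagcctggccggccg
Nr1d1: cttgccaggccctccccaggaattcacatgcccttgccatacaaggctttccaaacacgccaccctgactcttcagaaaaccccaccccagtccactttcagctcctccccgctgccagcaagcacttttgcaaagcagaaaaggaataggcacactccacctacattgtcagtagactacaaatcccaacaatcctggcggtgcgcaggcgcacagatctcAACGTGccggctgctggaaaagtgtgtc
Per1: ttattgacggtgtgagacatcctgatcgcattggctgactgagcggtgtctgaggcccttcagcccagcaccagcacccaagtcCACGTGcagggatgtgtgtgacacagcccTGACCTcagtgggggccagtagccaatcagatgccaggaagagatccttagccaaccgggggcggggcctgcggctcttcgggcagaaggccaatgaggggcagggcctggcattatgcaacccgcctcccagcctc

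The Per3 stretch held 2 D-boxes, whose first bases lie 205 and 158 bases before the start. At least 1 D-box of this spelling was found in 0.819% of 32851 mouse promoter windows of the same length, and 2 or more in 6 of them, or 0.0183%. The Per1 stretch held an E-box 166 bases and a ROR core 137 bases before the start. An E-box was present in 6.02% of all windows, and the ROR core in 14%. The Nr1d1 stretch held a variant E-box 28 bases before the start, a match found in 3.85% of windows. Neither the Dbp stretch nor the Clock stretch held any of these letters, which says only that they are not in these windows. Of the members not printed, Cry1 had an E-box at 60 and a variant E-box at 79 bases before its start, Cry2 a variant E-box at 166, and the third Clock start a ROR core at 119. Both Arntl starts, the Npas2 start, the second Clock start and the second Per1 start had none, and Per2 had no entry in the promoter table used. These matches describe letters and are not evidence of binding.

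Levels below are log2 intensities, and a difference on that scale of 1 is a doubling. On all genes the 10-week KO hearts stood apart, at 46.7 and 39.1 on a first principal component that carried 51.9% of the variance, with the other 6 hearts between -24 and -6.1. Replicate 1 of the 10-week WT hearts stood apart on the second component (24.3% of the variance) at 43.3, with the others between -13.9 and 4.2. On that array the summed linear intensity of 3 kidney markers was 892.2, against 70.6 to 271.8 elsewhere. That of 3 liver markers was 3703.7, against 381.6 in the other 10-week WT heart and 129.1 and 252.7 in 10-week KO hearts. In the 4-week hearts the liver sums ran from 200.5 to 3864.7. The kidney marker Kap was called lower in 10-week KO hearts (-2.70, limma adjusted p = 0.0218). All 3 liver estimates were below 0 at 10 weeks, and none was called. All 7 markers of ventricular muscle were measured, none below log2 8.56 on any array. In 10-week KO hearts Mybpc3 was called higher (0.98, limma adjusted p = 0.00751). Ryr2 (-1.27, adjusted p = 0.00938) and Tnni3 (-0.52, adjusted p = 0.0233) were called lower. The summed fibroblast markers (5 genes) were 17513.9 and 18117.6 in 10-week KO hearts, against 4575.3 and 6698.6 in 10-week WT hearts, with 4 of 5 called higher, and the summed macrophage markers (5 genes) were 5130.6 and 4381.8, against 1345.6 and 1608.5, again with 4 of 5 higher. The summed atrial markers (5 genes) were 23821.5 and 23528.9 in 10-week KO hearts, against 16084.6 and 24337.1 in 10-week WT hearts, with Nppa called higher (1.04, adjusted p = 0.0222) and Sln lower (-2.35, adjusted p = 0.012). At 4 weeks they were 13275.2 and 28263.0 in KO, against 6367.5 and 9362.3 in WT hearts, with all 5 above 0 in estimate and none called. The summed skeletal muscle markers (4 genes) were 7266.4 and 11478.9 in 10-week KO hearts, against 1542.7 and 1948.3 in 10-week WT hearts, where Acta1, which heart muscle also expresses, was called (2.45, adjusted p = 0.00025) and the other 3 genes were not. At 4 weeks the same sums were 6780.6 and 6244.6 in KO, against 3334.5 and 2659.1 in WT hearts. In whole hearts a change in the mix of cells and a change of RNA per cell cannot be told apart, and the part of these shifts in the clock results was not tested.

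**Figure D1:**
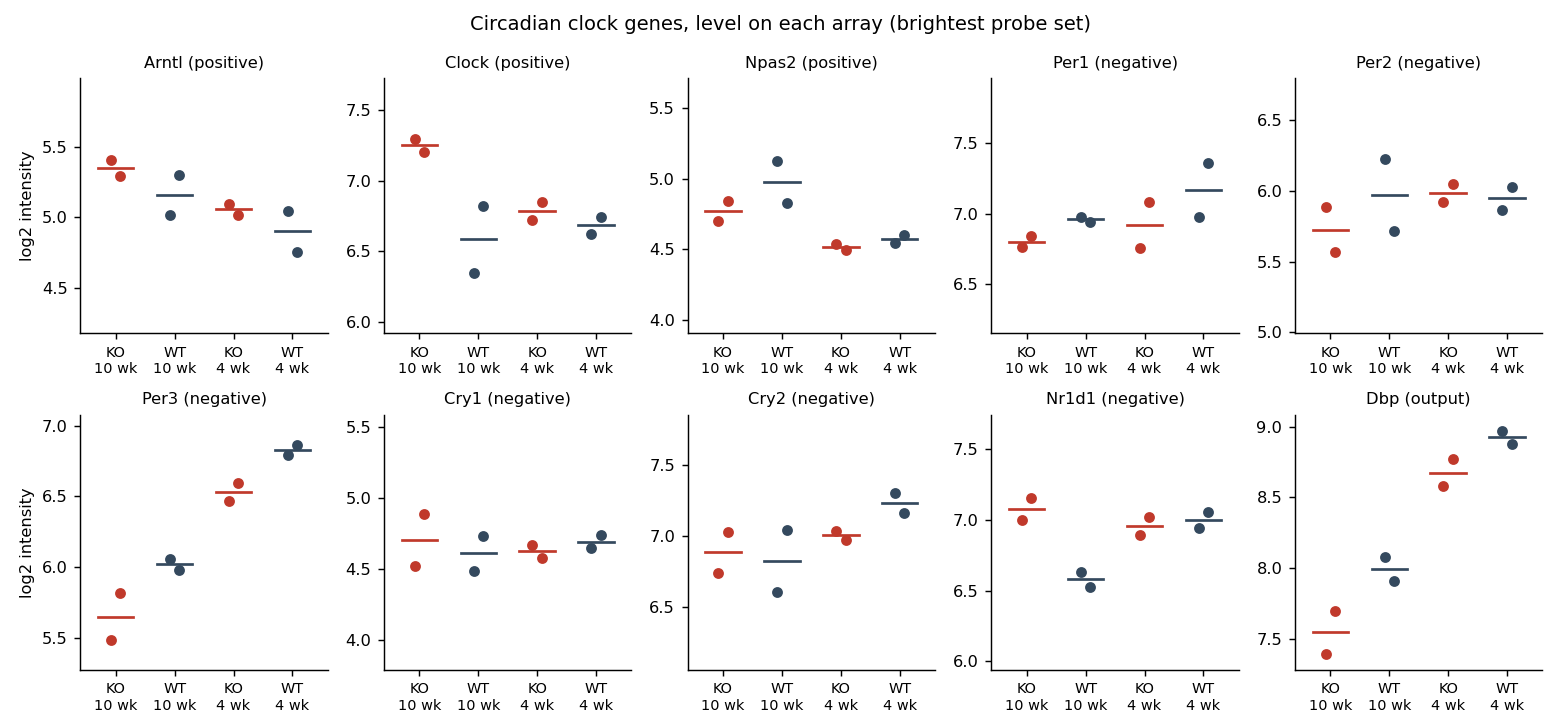
Log2 intensity of the 10 clock genes on each of the 8 arrays, 1 panel per gene, each on an axis of the same length. Points are hearts (KO red, WT dark) and bars are group means of 2. Clock and Nr1d1 sit higher in 10-week KO than in 10-week WT hearts without overlap, and Per3 and Dbp are lower in both 10-week groups than in both 4-week groups.

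At 10 weeks, Clock and Nr1d1 were higher in KO than in WT hearts, and no clock gene was called lower. That is 2 of 10 members called in limma, at a threshold of 0.05 on p-values adjusted across the whole array, while 12.1% of all genes passed the same test (945 higher and 1254 lower of 18193). A count of 2 in 10 is near that background and is therefore not a result about the clock genes as a group. The median difference of the 10 members was -0.05, against 0.00 over all genes. The 2 KO and 2 WT arrays did not overlap for 5 of the 10 members, against 47.1% of all genes: Clock and Nr1d1 were above, and Per1, Per3 and Dbp below. At an unadjusted p under 0.05 there were 4 members, Clock, Nr1d1, Dbp and Per3, against 23.6% of all genes.

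In the positive arm, Clock encodes the usual partner of ARNTL. Clock read log2 7.30 and 7.20 in 10-week KO hearts, against 6.35 and 6.82 in 10-week WT hearts. Both KO values were the highest of the 8 arrays, and the 2 WT values lay 0.47 apart. The difference was 0.66 ± 0.16 (SE, n = 2 and 2), a 1.58-fold higher level, with a limma adjusted p of 0.0272. Of the other 3 Clock probe sets, 1435775_at differed by 0.49, 1418660_at by 0.23 and 1439314_at by 0.03, none of them called. Without replicate 1 of the 10-week WT hearts, which stands apart above, the Clock difference was 0.43 (adjusted p = 0.101). The call was also lost without replicate 1 (0.62, adjusted p = 0.144) or 2 (0.71, adjusted p = 0.0907) of the 10-week KO hearts, without either 4-week WT array (adjusted p = 0.0592), in a fit of the 10-week arrays alone (adjusted p = 0.115) and with the mean of the 4 probe sets (0.35, adjusted p = 0.0993).

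Arntl, the partner common to CLOCK and NPAS2, read 5.41 and 5.29 in 10-week KO hearts, against 5.01 and 5.30 in 10-week WT hearts. The groups overlapped, and the difference of 0.19 ± 0.15 had a 95% interval of -0.14 to 0.53 (limma adjusted p = 0.516). Its second probe set, 1425099_a_at, read 5.43 and 5.42 in KO and 4.88 and 5.10 in WT hearts, a difference of 0.44 (adjusted p = 0.068 over all probe sets), so the 2 probe sets disagreed in size and neither was called. Npas2, the relative of Clock that can take its place in the pair, read 4.70 and 4.84 in KO, against 5.12 and 4.83 in WT hearts. Its groups overlapped and the difference was -0.20 ± 0.14 (adjusted p = 0.429). The 3 genes of the positive arm thus had 1 call, higher, with 2 of 3 estimates above 0.

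In the negative arm, Nr1d1, the nuclear receptor that represses Arntl, read 7.00 and 7.15 in 10-week KO hearts, against 6.63 and 6.53 in 10-week WT hearts. The WT pair was the lowest of the 8 arrays, and the KO pair lay in the range of the 4-week hearts or just above it. The difference was 0.49 ± 0.13, a 1.41-fold higher level (limma adjusted p = 0.0322). Nr1d1 has 1 probe set on the array. The call was lost without replicate 1 (0.57, adjusted p = 0.0714) or 2 (0.41, adjusted p = 0.175) of the 10-week KO hearts, without replicate 2 of the WT hearts (0.44, adjusted p = 0.0717), and without any 1 of the 4-week arrays (adjusted p = 0.05 for KO and 0.0675 for WT arrays). It was kept without replicate 1 of the 10-week WT hearts (adjusted p = 0.0437), and lost with array weights (adjusted p = 0.0799) and in a fit of the 10-week arrays alone (adjusted p = 0.125).

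The Per genes, whose proteins form the core of the repressing complex, had no call at 10 weeks. Per3 read 5.48 and 5.81 in KO, against 6.06 and 5.98 in WT hearts, a difference of -0.37 ± 0.14 (adjusted p = 0.137), with both KO arrays below both WT arrays. Its other 5 probe sets differed by -0.33 to 0.24, of which 2 were above 0, and the mean of the 6 by -0.08 (adjusted p = 0.688). Per1 read 6.76 and 6.84 in KO, against 6.98 and 6.94 in WT hearts. Its arrays did not overlap, but the difference of -0.16 ± 0.16 was of the size of its SE (adjusted p = 0.654). Per2 read 5.88 and 5.57 in KO, against 6.22 and 5.71 in WT hearts, and overlapped (-0.24 ± 0.18, adjusted p = 0.504). All 3 estimates were below 0 in the brightest probe sets.

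The cryptochromes, which block the ARNTL pair together with PER, did not separate KO from WT hearts at 10 weeks. Cry1 read 4.52 and 4.89 in KO, against 4.49 and 4.73 in WT hearts (0.09 ± 0.15, 95% interval -0.25 to 0.44, adjusted p = 0.799). Cry2 read 6.74 and 7.03 in KO, against 6.60 and 7.04 in WT hearts (0.06 ± 0.17, interval -0.32 to 0.44, adjusted p = 0.89). The intervals leave room for changes of either sign.

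Dbp, the transcription factor used as a readout of ARNTL and CLOCK activity, read 7.40 and 7.70 in 10-week KO hearts, against 8.08 and 7.91 in 10-week WT hearts. Both KO arrays were below both WT arrays, and the difference of -0.44 ± 0.15 missed the threshold (limma adjusted p = 0.085). The second Dbp probe set, 1438211_s_at, read 7.00 and 7.17 in KO, against 7.97 and 7.67 in WT hearts. Tested among all probe sets it was called, at -0.73 ± 0.16 (adjusted p = 0.0187), and the mean of both probe sets gave -0.59 (adjusted p = 0.0266). The Dbp call at 10 weeks therefore depends on which probe set is read, while the sign was the same in both.

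**Figure D2:**
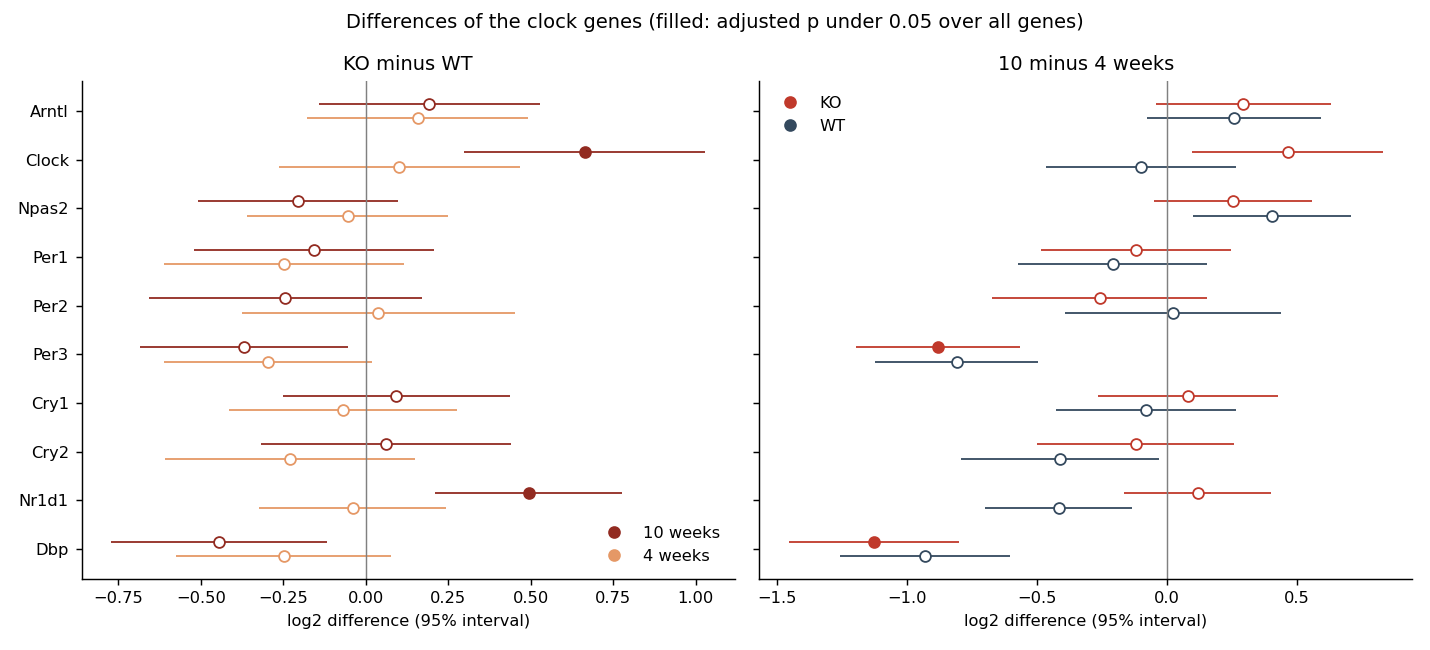
Log2 differences of the 10 clock genes with 95% intervals, KO minus WT at 10 and 4 weeks (left) and 10 minus 4 weeks in KO and WT hearts (right). Filled points have an adjusted p under 0.05 over all 18193 genes: Clock (0.66) and Nr1d1 (0.49) on the left, and Per3 (-0.88) and Dbp (-1.13) in KO hearts on the right.

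At 4 weeks no clock gene was called between KO and WT hearts, and none had an unadjusted p under 0.05, against 3.73% of all genes. Of all genes, 0.0275% were called (5 of 18193, all higher), so few members could be called at that age. The adjusted p was 0.999 for each member, 3 estimates were above 0 and 7 below, and the median difference was -0.06, against 0.01 over all genes. The arrays did not overlap for 4 of the 10 members, all lower in KO (Npas2, Per3, Cry2 and Dbp), against 36.9% of all genes.

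The positive arm was close between genotypes at 4 weeks. Clock read 6.72 and 6.85 in KO, against 6.62 and 6.74 in WT hearts (0.10 ± 0.16), and Arntl 5.10 and 5.02 in KO, against 5.05 and 4.76 in WT hearts (0.16 ± 0.15). Npas2 read 4.54 and 4.49 in KO, against 4.54 and 4.60 in WT hearts (-0.06 ± 0.14), and its arrays fell just short of overlapping. The 95% interval of the Clock difference was -0.26 to 0.47.

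The largest 4-week estimates among members were those of Per3 and, close together, Dbp and Per1. Per3 read 6.46 and 6.60 in KO, against 6.79 and 6.86 in WT hearts (-0.30 ± 0.14, interval -0.61 to 0.02). Dbp read 8.58 and 8.77 in KO, against 8.97 and 8.88 in WT hearts (-0.25 ± 0.15), and Per1 6.75 and 7.09 in KO, against 6.98 and 7.36 in WT hearts (-0.25 ± 0.16). In their brightest probe sets, both Per3 and Dbp had their KO arrays below their WT arrays, as they also did at 10 weeks, in different animals. The other Per3 probe sets differed by -0.09 to 0.07 at 4 weeks. The second Dbp probe set differed by -0.18, and its 4-week arrays overlapped (8.61 and 8.97 in KO, 8.98 and 8.96 in WT hearts). Cry2 read 7.03 and 6.97 in KO, against 7.31 and 7.16 in WT hearts (-0.23 ± 0.17). The other 3 members of the negative arm differed least. Per2 read 5.92 and 6.05 in KO, against 5.86 and 6.03 in WT hearts. Cry1 read 4.67 and 4.58 in KO, against 4.65 and 4.74 in WT hearts, and Nr1d1 6.89 and 7.02 in KO, against 6.94 and 7.05 in WT hearts.

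Whether the KO minus WT difference itself changed with age was tested as the 10-week difference minus the 4-week difference. None of the 10 members was called, against 2.08% of all genes, and 2 had an unadjusted p under 0.05, against 13.9% of all genes. These were Nr1d1, at 0.53 ± 0.18 (limma adjusted p = 0.193), and Clock, at 0.56 ± 0.23 (adjusted p = 0.307). Without replicate 2 of the 10-week WT hearts Clock was called in this test (0.80, adjusted p = 0.0289), which leaves the array that stands apart as the only WT heart of that age. The 10-week and 4-week differences of Clock and Nr1d1 are therefore not shown to be unequal. In the brightest probe sets of Per3 (-0.07 ± 0.20) and Dbp (-0.20 ± 0.21) the KO minus WT differences of the ages were within 1 SE of each other. The second Dbp probe set, 1438211_s_at, gave -0.56 ± 0.22 and was not called (limma adjusted p = 0.355 over all probe sets). The other Per3 probe sets ran from -0.41 to 0.33, none called.

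The largest differences of the clock genes in estimate were between the ages. In KO hearts, Dbp and Per3 were lower at 10 than at 4 weeks, which is 2 of 10 members, against 10.5% of all genes, again a share near the background. The median member difference was -0.02, against 0.04 over all genes, and 3 members had an unadjusted p under 0.05, the third being Clock, against 25.3% of all genes. The arrays of the ages did not overlap for 6 of 10 members (Arntl, Clock and Npas2 higher at 10 weeks, Per2, Per3 and Dbp lower), against 57.7% of all genes. Age, litter, any processing day and the hour of dissection cannot be told apart in these comparisons.

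Dbp read 7.40 and 7.70 in 10-week KO hearts, against 8.58 and 8.77 in 4-week KO hearts. Both 10-week arrays lay below both 4-week arrays, and the difference was -1.13 ± 0.15, a 2.18-fold lower level (limma adjusted p = 0.00182). This call was kept without each array in turn. The second probe set gave -1.71 ± 0.16. Per3 read 5.48 and 5.81 in 10-week KO hearts, against 6.46 and 6.60 in 4-week KO hearts, a difference of -0.88 ± 0.14, or 1.84-fold lower (adjusted p = 0.00461). Its other 5 probe sets gave -0.32 to -0.01, and the mean of the 6 was -0.30 (adjusted p = 0.0892). Without replicate 2 of the 4-week KO hearts the Per3 difference was -0.82 (adjusted p = 0.0569).

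In WT hearts no member was called between the ages, against 0.115% of all genes (21 of 18193) by limma, and 5 of 10 had an unadjusted p under 0.05, against 18.1% of all genes. Dbp read 8.08 and 7.91 in 10-week WT hearts, against 8.97 and 8.88 in 4-week WT hearts, a difference of -0.93 ± 0.15 (limma adjusted p = 0.0652). Its second probe set differed by -1.15 and was called among all probe sets (adjusted p = 0.0363). Per3 read 6.06 and 5.98 in 10-week WT hearts, against 6.79 and 6.86 in 4-week WT hearts (-0.81 ± 0.14, adjusted p = 0.0789). Its other 5 probe sets ran from -0.58 to 0.23, 2 of them above 0, and the mean of the 6 differed by -0.27 (adjusted p = 0.227). In their brightest probe sets, the Dbp and Per3 estimates were thus below 0 in both genotypes.

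The other 3 such members in WT hearts were Nr1d1 (-0.42 ± 0.13, adjusted p = 0.215), Cry2 (-0.41 ± 0.17, adjusted p = 0.256) and Npas2 (0.40 ± 0.14, adjusted p = 0.229). In KO hearts the same differences were 0.12 for Nr1d1, -0.12 for Cry2 and 0.25 for Npas2, each with its age interval spanning 0. The WT arrays of the ages did not overlap for 5 of 10 members (Npas2 higher at 10 weeks, Per3, Cry2, Nr1d1 and Dbp lower), against 55% of all genes. The median member difference was -0.15, against 0.05 over all genes. Without replicate 2 of the 10-week WT hearts, the array that stands apart above is the only WT heart of that age. The differences between the ages in WT hearts were then 0.55 for Npas2, -0.77 for Per3, -0.63 for Cry2 and -0.85 for Dbp. With 1 such array these values cannot be read as an effect of age.

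The remaining members were not called in either genotype through their brightest probe set. Clock differed by 0.46 ± 0.16 in KO hearts (adjusted p = 0.111) and by -0.10 ± 0.16 in WT hearts. Without either 10-week WT array the Clock difference in KO hearts was called (adjusted p = 0.0253), its value unchanged. Arntl differed by 0.29 ± 0.15 in KO and 0.26 ± 0.15 in WT hearts, and its second probe set by 0.64 (adjusted p = 0.0161, called among all probe sets) and 0.35. Per1 differed by -0.12 in KO and -0.21 in WT hearts, and Cry1 by 0.08 in KO and -0.08 in WT hearts. Per2 differed by -0.26 in KO and 0.02 in WT hearts, but its probe sets disagreed. Of the others, 1417602_at differed by -0.55 in KO and -0.64 in WT hearts, and 1417603_at by -0.09 and -0.04, none called.

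**Figure D3:**
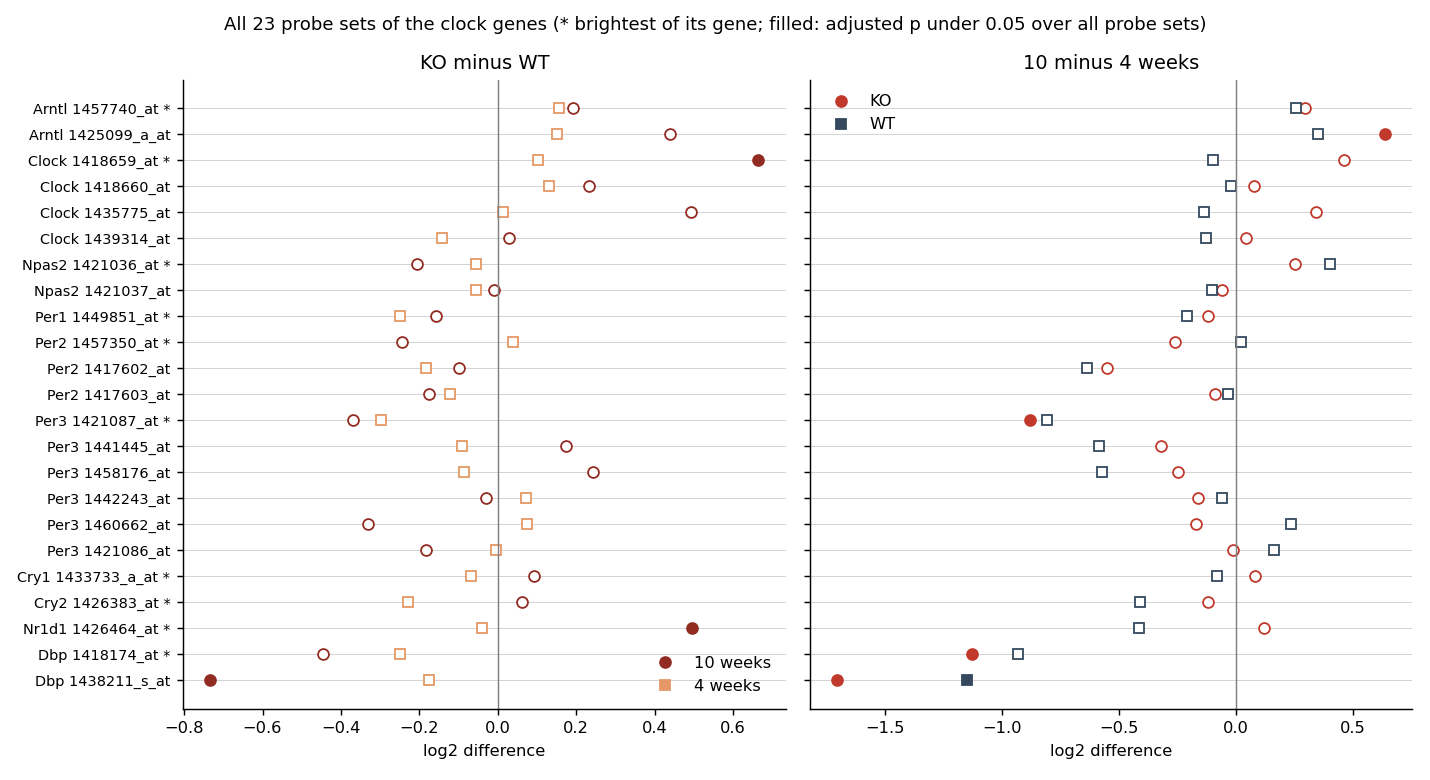
Log2 differences of all 23 probe sets of the clock genes, KO minus WT at 10 weeks (circles) and 4 weeks (squares) on the left, and 10 minus 4 weeks in KO (circles) and WT hearts (squares) on the right. Filled symbols have an adjusted p under 0.05 over all 45037 probe sets. Both Dbp probe sets lie left of 0 in every comparison, while those of Per3 and Clock spread, as with Per3 from -0.88 to -0.01 between the ages in KO hearts.

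Across the arrays, Dbp had the widest range of the members, 1.57 between its lowest array (10-week KO replicate 1) and its highest (4-week WT replicate 1). Per3 came next at 1.38, with its lowest value on the same array. Cry1 had the narrowest range, 0.40. Its probe set was dim, at a mean of log2 4.66 and percentile 40.1 of all probe sets. Those of Npas2 (percentile 41.1) and Arntl (percentile 49.2) were also below the middle. The part of a low level in a narrow range was not tested. Clock ranged over 0.95 and the other 6 members over 0.60 to 0.70.

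To set the arms side by side, each gene's deviation from its own mean over the 8 arrays was averaged within an arm. The positive arm stood at 0.25 and 0.23 in 10-week KO hearts, against -0.06 and 0.10 in 10-week WT hearts. At 4 weeks it stood at -0.10 and -0.10 in KO, against -0.15 and -0.18 in WT hearts. The negative arm stood at -0.21 and -0.06 in 10-week KO hearts, against -0.11 and -0.12 in 10-week WT hearts, and at 0.01 and 0.11 in 4-week KO, against 0.14 and 0.26 in 4-week WT hearts. In KO hearts the positive arm was thus above its mean at 10 weeks and below it at 4 weeks, and the negative arm the reverse. Per3, through its brightest probe set, stood at -0.77 and -0.44 in 10-week KO hearts and at 0.21 and 0.34 in 4-week KO hearts. Its other probe sets differed less between the ages in KO hearts (-0.32 to -0.01). Nr1d1 was above its mean in 10-week KO hearts (0.09 and 0.25). Neither the negative arm nor the difference of the arms was computed without Per3. The positive minus negative value was 0.46 and 0.29 in 10-week KO hearts and 0.06 and 0.22 in 10-week WT hearts, and -0.11 and -0.20 in 4-week KO hearts and -0.29 and -0.44 in 4-week WT hearts.

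All 4 of the 10-week hearts were above all 4 of the 4-week hearts on this measure, and at each age both KO hearts were above both WT hearts. The values are a description of 9 genes, with no test. Within the negative arm, Nr1d1 was higher in 10-week KO hearts while the 3 Per estimates were below 0, and within the positive arm the Npas2 estimate was below 0. In a running clock the balance of the arms depends on the hour, which the labels do not give, and the part of the hour of dissection was not tested.

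**Figure D4:**
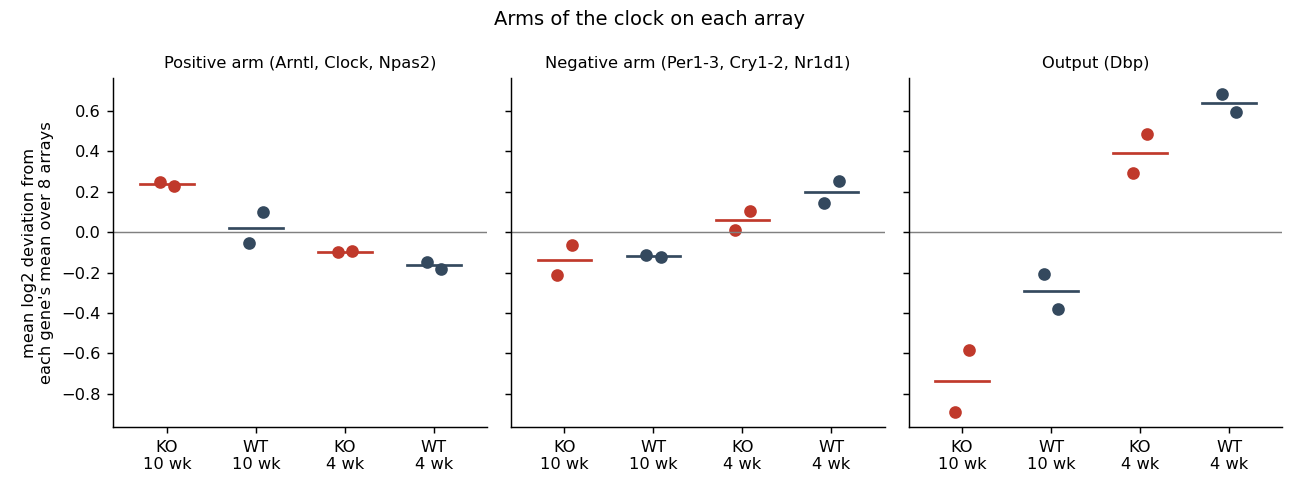
Mean log2 deviation of the positive arm (3 genes), the negative arm (6 genes) and Dbp from each gene's own mean over 8 arrays. Points are hearts and bars are means of 2, with KO in red and WT dark. The positive arm is highest in 10-week KO hearts (0.25 and 0.23), and Dbp is lowest there (-0.89 and -0.59).

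Other genes of the loop were read from lists, to be set against the 12.1% of all genes called at 10 weeks and the all-gene median of 0.00. Of 10 measured feedback partners, transcription factors that act on the same elements, 2 were lower in 10-week KO hearts and none higher, with a median of 0.27. Hlf, a relative of Dbp that binds D-boxes, read 5.59 and 5.82 in KO, against 6.71 and 6.81 in WT hearts (-1.06 ± 0.19, limma adjusted p = 0.00611). Nr1d2, the REV-ERB beta relative of Nr1d1, read 9.17 and 9.26 in KO, against 9.74 and 9.81 in WT hearts (-0.56 ± 0.12, adjusted p = 0.0135). Nr1d1 and Nr1d2 thus carried opposite signs at 10 weeks. Without replicate 1 of the 10-week KO hearts neither was called (-0.94 with adjusted p = 0.0563 for Hlf, -0.52 with adjusted p = 0.0842 for Nr1d2), and in a fit of the 10-week arrays alone Nr1d2 was not called (adjusted p = 0.082).

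Of 10 measured kinases, ligases and partners of the clock proteins, 2 were higher in 10-week KO hearts and none lower, with a median of 0.28. Gsk3b, a kinase that phosphorylates several clock proteins, read 8.83 and 8.65 in KO, against 7.61 and 8.23 in WT hearts (0.82 ± 0.19, adjusted p = 0.0238), the lowest value being on the WT array that stands apart. Without that array its difference was 0.51 (adjusted p = 0.0733). Its call was also lost without replicate 1 (0.73, adjusted p = 0.144) or 2 (0.91, adjusted p = 0.0721) of the 10-week KO hearts, without either 4-week WT array (adjusted p = 0.0551), in a fit of the 10-week arrays alone (adjusted p = 0.101) and when its probe sets were averaged (0.35, adjusted p = 0.153). Btrc, a ubiquitin ligase subunit that recognises PER proteins, read 7.30 and 7.66 in KO, against 6.80 and 6.93 in WT hearts (0.62 ± 0.16, adjusted p = 0.0365). When its probe sets were averaged the Btrc difference was 0.05 (adjusted p = 0.81), and without probe sets of shared sequence it was 0.03 (adjusted p = 0.945). Its call was also lost without replicate 2 of the 10-week KO hearts (0.43, adjusted p = 0.225), replicate 1 of the 10-week WT hearts (0.55, adjusted p = 0.108) or either 4-week WT array (adjusted p = 0.0707), with median centring (adjusted p = 0.0568), with array weights (adjusted p = 0.0834) and in a fit of the 10-week arrays alone (adjusted p = 0.111).

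Among genes of heart linked to the clock in earlier work, 14 were measured at 10 weeks. Of these, 6 were lower in KO hearts and 1 higher, against 12.1% of all genes called, with a median of -0.60. This list, like the others, was chosen with earlier results of these data known, so its count is not an independent test. The largest falls were in Pik3r1, a regulatory subunit of phosphoinositide 3-kinase, and Kcnip2, the potassium channel subunit that shapes repolarisation. Pik3r1 read 6.52 and 6.20 in KO, against 8.67 and 8.41 in WT hearts (-2.18 ± 0.17, limma adjusted p = 0.0001). Kcnip2 read 7.62 and 7.996 in KO, against 9.21 and 9.70 in WT hearts (-1.65 ± 0.18, adjusted p = 0.000666). Noct, a rhythmic enzyme also called nocturnin, differed by -1.28 ± 0.18 (adjusted p = 0.00202), and Nampt, which makes a precursor of NAD, by -1.11 ± 0.14 (adjusted p = 0.00105). In each of these 4 the KO arrays lay below the WT arrays, and the calls held in every alternative tried in which the gene was measured.

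The 1 higher member was Bdh1, which encodes an enzyme of ketone body use, at 10.08 and 10.19 in KO, against 9.42 and 9.38 in WT hearts (0.73 ± 0.16, adjusted p = 0.0143). It was not called without replicate 1 (0.79, adjusted p = 0.0603) or 2 (0.68, adjusted p = 0.0887) of the 10-week KO hearts. At 4 weeks Bdh1 was the only called gene of the lists, at 8.04 and 8.40 in KO, against 6.80 and 6.53 in WT hearts (1.56 ± 0.16, adjusted p = 0.0103). That call was lost without replicate 2 of the 4-week KO hearts (1.37, adjusted p = 0.127) or either 4-week WT array (1.69 with adjusted p = 0.0699 and 1.42 with adjusted p = 0.281). Bdh1 was also 1.91 higher at 10 than at 4 weeks in KO hearts and 2.74 in WT hearts, both called.

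Glucocorticoids and body temperature follow the day and can reset tissue clocks, so their target genes were read as well. Of 12 glucocorticoid-induced genes, 2 were lower in 10-week KO hearts and none higher, with a median of -0.39. Dusp1, a phosphatase of MAP kinases, differed by -1.07 ± 0.20 (limma adjusted p = 0.00752), and Klf9, a zinc finger factor, by -0.69 ± 0.14 (adjusted p = 0.0126). The Dusp1 call was lost without replicate 2 of the 10-week KO hearts (-1.05, adjusted p = 0.0512) and in a fit of the 10-week arrays alone (adjusted p = 0.053), and that of Klf9 without replicate 1 (-0.62, adjusted p = 0.0882) and when its probe sets were averaged (-0.36, adjusted p = 0.0932).

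Of 8 measured temperature-responsive genes, 1 was higher and 2 lower, with a median of -0.02. Cirbp, a cold-inducible RNA-binding protein, read 7.46 and 7.72 in 10-week KO hearts, against 6.14 and 6.38 in 10-week WT hearts (1.33 ± 0.16, adjusted p = 0.00106). Dnajb1, a heat shock cochaperone, differed by -1.07 ± 0.16 (adjusted p = 0.00275). Hsph1, a large heat shock protein, differed by -1.92 ± 0.50 (adjusted p = 0.0351), from 6.52 and 7.37 in KO, against 7.93 and 9.80 in WT hearts, which lay far apart. Its call was lost without either 10-week KO array (-1.50 with adjusted p = 0.225, -2.35 with adjusted p = 0.0606), without either 4-week KO array (adjusted p = 0.0614) and without either 4-week WT array (adjusted p = 0.0717). It was also lost when its probe sets were averaged (adjusted p = 0.053), with median centring (adjusted p = 0.0529), with the trend and robust options of eBayes (adjusted p = 0.144) and in a fit of the 10-week arrays alone (adjusted p = 0.132). On the difference of the KO minus WT differences, Pik3r1 (-1.33, limma adjusted p = 0.0277) and Kcnip2 (-1.26, adjusted p = 0.0457) were called. So were Dusp1 (-1.32, adjusted p = 0.0486) and Dnajb1 (-1.12, adjusted p = 0.0435), against 2.08% of all genes. Each of these calls was lost without any 1 of the 4-week arrays or the 10-week KO arrays. For Cirbp the KO minus WT difference was larger at 10 than at 4 weeks by 1.68 (adjusted p = 0.0111 for the difference of differences). At 4 weeks Cirbp read 6.71 and 7.09 in KO, against 7.25 and 7.23 in WT hearts. The call on the difference of differences was lost without replicate 1 (1.66, adjusted p = 0.0817) or 2 (1.69, adjusted p = 0.0904) of the 4-week WT hearts.

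At 4 weeks the other 4 lists besides that of the heart outputs had no call. The smallest p in each belonged to Nr1d2 (-0.36 ± 0.12), Cipc, an inhibitor of CLOCK (-0.23 ± 0.17), Fkbp5, a chaperone partner of the glucocorticoid receptor (-0.86 ± 0.13, adjusted p = 0.128), and Cirbp (-0.34 ± 0.16). Next came Bhlhe40, a repressor that competes for E-boxes (-0.37 ± 0.15), Fbxl21, a ligase subunit that acts on CRY (0.19 ± 0.17), Tsc22d3 (-0.39 ± 0.14) and Hspa1b, an inducible heat shock protein (0.43 ± 0.21), all with an adjusted p of 0.999 in limma. Nr1d2 was also lower in KO hearts in estimate at 4 weeks, at 10.14 and 10.14 in KO, against 10.56 and 10.44 in WT hearts.

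**Figure D5:**
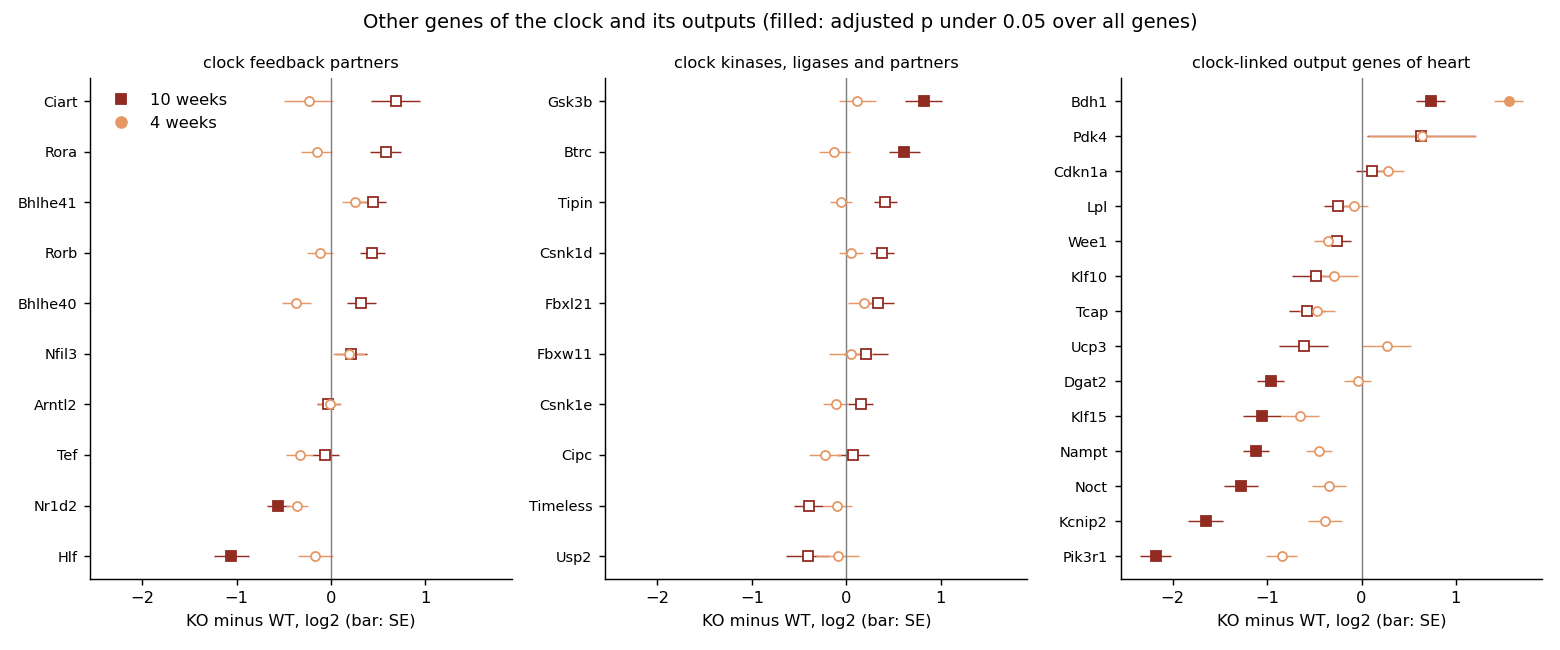
KO minus WT log2 differences with SE at 10 weeks (squares) and 4 weeks (circles) for the feedback partners, the kinases, ligases and partners, and the clock-linked output genes of heart. Filled symbols have an adjusted p under 0.05 over all genes. Hlf and Nr1d2 are the filled symbols of the first panel, Gsk3b and Btrc of the second, and Pik3r1 at -2.18 is the lowest of the third.

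In the age comparison of KO hearts, the same D-box and REV-ERB relatives were lower at 10 weeks, with a difference of -1.51 ± 0.19 for Hlf (limma adjusted p = 0.00154) and -0.92 ± 0.12 for Nr1d2 (adjusted p = 0.00164), as 2 of 10 feedback partners, against 10.5% of all genes. In WT hearts 0 of 10 feedback partners were called between the ages by limma, and 7 had an unadjusted p under 0.05, against 18.1% of all genes, with a median difference of -0.57.

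The genes whose profile over the 8 arrays was nearest to Dbp, by mean absolute difference of log2 values centred on each gene's mean, were Ppp1r14c (0.116), Btbd3 (0.117), Nr1d2 (0.118), Hacd1 (0.126) and Ei24 (0.128), among 16319 genes with a median of 0.542. A gene that did not vary would be 0.515 from Dbp. The 10 clock genes and genes with clone-like symbols were left out of this ranking and of that for Arntl below. No clock gene of the 10 could therefore appear among the nearest. Of these 5, Nr1d2 is the 1 gene that is also on the lists above. Those nearest to Arntl were Ly6g2 (0.0371), Ooep (0.049), Osr1 (0.0501), Cd8a (0.0529) and Noc3l (0.0533), with a median of 0.202. A gene that did not vary would be 0.163 from Arntl, so the distances from Arntl are on a smaller scale than those from Dbp.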

How the data were processed

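Total RNA of 8 hearts, taken with TRIzol and labelled with biotin, was read on 8 Affymetrix mouse arrays, per the labels. The authors deposited probe set intensities on the linear scale. Per the submitters' processing notes, the tools were GCOS 1.3 and RMA (no version). RMA equalises the arrays' distributions, so differences are relative to the whole array. Array medians were 34.3 to 37.4, and 2 arrays per group limit the precision. Log2 was taken here, with no pseudocount and no filter.

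Of 45101 probe sets, 64 controls were left out, leaving 45037, of which 34945 named 1 gene, 932 several and 9160 none. The brightest probe set by mean over all arrays stood for each of 18193 genes. Limma 3.58.1 (R 4.3.3) fitted 1 mean per group over all 8 arrays (eBayes, 4 residual and 9.33 total degrees of freedom). Tests were two-sided, with Benjamini-Hochberg adjustment over all genes and a threshold of 0.05, and "called" means an adjusted p under it. The scripts were tested on simulated data. Replicates were separate mice.

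The members, the lists and the tests were chosen with earlier results of these data known. All members were named. Of each list, the cell type markers aside, up to 4 called genes with the largest KO minus WT difference at each age were named. Where a list had no call, the 2 of smallest p were named. The gene deleted in the line is not reported here. The alternatives changed the probe sets (each alone, averaged per gene, those of shared sequence removed), the genes (dim ones removed), the scaling (quantile normalization again, median centring), the fit (trended robust eBayes, array weights, a replicate block) and the arrays (only the groups compared, and the loss of each array).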

Additional observations from a re-analysis of the deposited data

How the results depend on the processing

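The count of called clock genes was 0 between KO and WT hearts at 4 weeks under every alternative run. At 10 weeks the 2 calls became 1 with array weights and 0 with only the groups compared, and 0 to 1 with 1 array left out, while 9.2%, 5.27% and 6.34% to 17.8% of all genes were called. With all probe sets singly it was 3, Dbp joining, and with averaged probe sets 2, Dbp being called in place of Clock. For the difference between ages the count was 0, or 0 to 1 with 1 array left out. Between the ages in KO hearts it was 2, or 1 to 3 with 1 array left out (2.9% to 16.7% of all genes). It was 3 with quantile normalization again (Clock 0.54, adjusted p = 0.0474) and 3 with all probe sets singly, Arntl joining, and with averaged probe sets 2, Arntl (0.46, adjusted p = 0.048) being called in place of Per3. In WT hearts it was 0, but 1 with averaged probe sets, 1 with all probe sets singly and 0 to 4 with 1 array left out, with 0.022% to 16.2% of all genes called. The cause of these changes was not tested, except that fewer arrays leave fewer degrees of freedom.

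With the replicate number within an age as a replicate block, 2 members were called between the ages in WT hearts, Per3 (-0.81, adjusted p = 0.046) and Dbp (-0.93, adjusted p = 0.0424), while 0.945% of all genes were called, against 0.115% without the block. The other counts did not change. The labels do not say that the numbers pair KO and WT mice. The deviations of same-numbered KO and WT arrays from their group means correlated at 0.302 at 4 weeks and 0.230 at 10 weeks, and 2 numbers per age cannot establish a pairing.

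Of the values of single members under the alternatives, 767 kept their sign and their side of the threshold, 18 lost and 13 gained a call, and 27 changed sign, none of them called. The last were Per2 at 4 weeks with its probe sets averaged (-0.089), Per2 between the ages in WT hearts with that mean (-0.22) and with median centring (-0.048), and values with 1 array left out. With 1 array left out, KO minus WT at 4 weeks ran from -0.045 to 0.12 for Per2 and from -0.11 to 0.025 for Nr1d1. At 10 weeks it ran from -0.50 to 0.011 for Per2, -0.090 to 0.28 for Cry1 and -0.16 to 0.28 for Cry2. The difference of differences ran from -0.11 to 0.18 for Arntl, -0.10 to 0.28 for Per1, -0.24 to 0.092 for Per3 and -0.020 to 0.34 for Cry1. Between the ages in KO hearts the range was -0.28 to 0.047 for Per1, -0.10 to 0.26 for Cry1 and -0.26 to 0.023 for Cry2, and in WT hearts -0.34 to 0.14 for Clock, -0.23 to 0.28 for Per2 and -0.205 to 0.040 for Cry1.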
